A study of Mus musculus with 2 samples.

Results

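The 10 genes described here are members of the epidermal growth factor (EGF) family and its receptors: 6 ligands (Nrg1, Nrg2, Nrg4, Ereg, Hbegf and Tgfa) and the 4 ErbB receptors (Egfr, Erbb2, Erbb3 and Erbb4). They were taken by name from the 32285 gene features of each library, and all 10 were present in both. The genes were chosen by the measured Nrg4 level, which led a macrophage-like cluster in earlier results of these RNA counts, so the levels below are a description and were not tested. Nuclei of fetal mouse lung on gestation day 18 were read for RNA and accessible chromatin together, in 1 library of 9 pooled fetuses from a PBS-treated mother and 1 library of 8 pooled fetuses from a mother made asthmatic with ovalbumin (OVA). The fetuses were wild type. Per the labels and methods, young adult females of both groups received alum by injection before mating, with OVA in 1 group and with PBS alone in the other, and then intranasal OVA or PBS through most of gestation. Cells had been sorted as group 2 innate lymphoid cells (ILC2s; CD45+ Lin- ST2+), as other CD45+ cells or as EpCAM+ epithelium and then combined, so the shares of cell types depend on the sort. Many stromal nuclei were present all the same. With 1 mother and 1 library per group there was no replicate check and no test between groups. The libraries shared 54 barcode sequences. Every interval is a 95% interval for counting error only, and every ratio compares these libraries and not the treatments.

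ErbB receptors are tyrosine kinases that signal in pairs. EGF-type ligands such as transforming growth factor alpha (Tgfa), heparin-binding EGF-like growth factor (Hbegf) and epiregulin (Ereg) bind Egfr, and Hbegf and Ereg also bind Erbb4. Neuregulins bind Erbb3 and Erbb4, with Nrg4 known mainly as an Erbb4 ligand. Erbb2 has no known ligand and serves as a partner, and Erbb3 has little kinase activity of its own. In the fetal lung, this family is known for roles in branching, alveolar type 2 (AT2) cell maturation and surfactant production.

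Nuclei were sorted into cell types by fixed marker genes, called gates below: a nucleus needed at least 2 distinct markers of a type and at least 1 more than for any other. The 9 gates with at least 50 nuclei in each library held 2259 of 4279 kept PBS nuclei and 3237 of 4996 kept OVA nuclei. These were ILC2s, macrophages, monocytes, mast cells or basophils, AT2 cells, alveolar type 1 (AT1) cells, fibroblasts, myofibroblasts or smooth muscle, and pericytes. Levels are given as CPM: the unique molecular identifiers (UMIs) of a gene over all nuclear-gene UMIs of the gate, mitochondrial genes left out and scaled to 1000000. The libraries differed in depth, with a median of 649 nuclear-gene UMIs per kept nucleus in PBS and 1214 in OVA and in the mitochondrial share of gene UMIs over all barcodes, 45.2% and 29.2%. In macrophage-gated nuclei that share was 47.5% and 39.4%; its part in the results was not tested. Mrc1 and Mertk are among the markers that define the macrophage gate, so their shares describe the gate and do not check it. Of its nuclei, 150 of 235 (PBS) and 282 of 463 (OVA) had only the minimum of 2 macrophage markers. Mrc1 was found in 68.9% (PBS) and 59.8% (OVA) of the gate's nuclei against 4.70% and 5.25% of the others. Mertk was found in 66.8% and 71.1% against 10.4% and 20.4%. C1qa, another defining marker, was found in only 11.9% and 4.54% of the gate's nuclei. Of the macrophage gate, 228 of 235 PBS nuclei and 461 of 463 OVA nuclei lay in macrophage or monocyte clusters. Only 75 and 94 lay in clusters named for macrophages alone. Of the monocyte gate, 84 of 87 PBS nuclei and 148 of 151 OVA nuclei lay in macrophage or monocyte clusters. Only 30 and 58 lay in the monocyte cluster itself. Different clusters held most nuclei of some gates in the 2 libraries: cluster 0 (PBS) and 2 (OVA) for macrophages, 10 and 2 for monocytes, 9 and 8 for AT1 cells, and 1 and 5 for fibroblasts.

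Promoter sequences (RefSeq, GRCm38.p6, the mm10 build of the files) were at hand for Nrg4, Tgfa, Egfr, Erbb2 and Erbb4. Those of Nrg4, Erbb2 and Tgfa are printed because all 300 bases of each lay inside an accessible peak in both libraries, and the accessibility of these peaks differed between cell types. Each runs 5′ to 3′ on the gene's strand, from 250 bases before the start to 50 after it. Capitals mark short words known from transcription factor motifs, searched on both strands.
Nrg4 (chr9:55283576-55283875, minus strand): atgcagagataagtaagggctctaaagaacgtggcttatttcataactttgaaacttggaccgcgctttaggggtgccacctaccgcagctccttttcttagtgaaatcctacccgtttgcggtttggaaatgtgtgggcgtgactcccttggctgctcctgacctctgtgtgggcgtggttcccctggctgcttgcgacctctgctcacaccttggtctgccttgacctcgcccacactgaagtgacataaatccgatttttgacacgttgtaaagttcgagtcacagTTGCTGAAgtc
Erbb2 (chr11:98412234-98412533, plus strand): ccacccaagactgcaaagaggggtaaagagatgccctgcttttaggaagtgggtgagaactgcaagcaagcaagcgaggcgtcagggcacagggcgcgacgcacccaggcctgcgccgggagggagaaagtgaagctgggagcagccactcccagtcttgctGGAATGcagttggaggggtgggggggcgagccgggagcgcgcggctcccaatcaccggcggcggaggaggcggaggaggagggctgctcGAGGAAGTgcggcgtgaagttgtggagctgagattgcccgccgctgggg
Tgfa (chr6:86194972-86195271, plus strand): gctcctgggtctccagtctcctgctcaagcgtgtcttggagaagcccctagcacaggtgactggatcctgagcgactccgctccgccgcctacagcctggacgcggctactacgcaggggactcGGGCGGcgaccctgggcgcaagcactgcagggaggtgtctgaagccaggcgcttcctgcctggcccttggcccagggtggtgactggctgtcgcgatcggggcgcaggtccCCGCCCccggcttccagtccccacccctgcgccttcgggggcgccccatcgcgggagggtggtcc
The word TTGCNNAA, of the C/EBP family, stood 39 bases after the Nrg4 start and is found in 10.8% of 32851 promoters of this length. The Erbb2 promoter held GGAATG, the TEAD word (14.7% of promoters), and GAGGAAGT, the word of the myeloid factor PU.1 (3.20%). The Tgfa promoter held the Sp/KLF word GGGCGG at 2 places, once on each strand (35.7%). TGANTCA (AP-1, 7.81%) and TATAAA (the TATA box, 13.6%) were in none of these 3 promoters. None of these words overlapped another. These matches describe letters only.

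Nrg4 was the gene whose level in a macrophage-like cluster led to this choice of genes, so its place in macrophages is no separate finding. Among the 9 gates, its UMIs lay mainly in macrophages. There Nrg4 reached 295 CPM in the PBS library (70 UMIs, interval 230 to 373) and 703 CPM in the OVA library (521 UMIs, 644 to 766). Macrophages thus held 62.5% (PBS) and 77.2% (OVA) of the Nrg4 UMIs of the 9 gates. Their level was 16.7-fold and 22.3-fold that of the other 8 gates together, at 17.7 and 31.6 CPM. Monocyte-gated nuclei came next, with 229 CPM (19 UMIs, 138 to 358) and 440 CPM (87 UMIs, 352 to 543). In PBS, macrophages and monocytes did not differ beyond counting error (log2 ratio 0.36, −0.39 to 1.18), and in OVA macrophages were higher (0.68, 0.35 to 1.02). Over all kept nuclei Nrg4 had 325 UMIs in PBS and 1488 in OVA, so more of its UMIs lay outside the 9 gates than inside. Nuclei of macrophage clusters outside the macrophage and monocyte gates had 215 UMIs (332 CPM) and 839 UMIs (732 CPM).

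The monocyte value rested on nuclei outside the monocyte cluster. In nuclei that were both gated as monocytes and in the monocyte cluster, Nrg4 had 0 UMIs in PBS (30 nuclei, which allows up to 144 CPM) and 3 UMIs or 66.5 CPM in OVA (58 nuclei). Outside the myeloid gates, Nrg4 was low: in AT2 cells it had 12 UMIs (22.6 CPM) in PBS and 14 UMIs (21.3 CPM) in OVA. In ILC2s it had 1 UMI (4.61 CPM) and 27 UMIs (45.8 CPM), of which 8 came from 1 nucleus. In the nuclei that were also in the cluster of the same name, AT2 cells had 1 UMI in each library and ILC2s had 0 and 4 UMIs. Macrophages restricted in the same way had 18 UMIs (215 CPM, 127 to 340) in PBS and 80 UMIs (530 CPM, 420 to 660) in OVA.

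**Figure D1:**
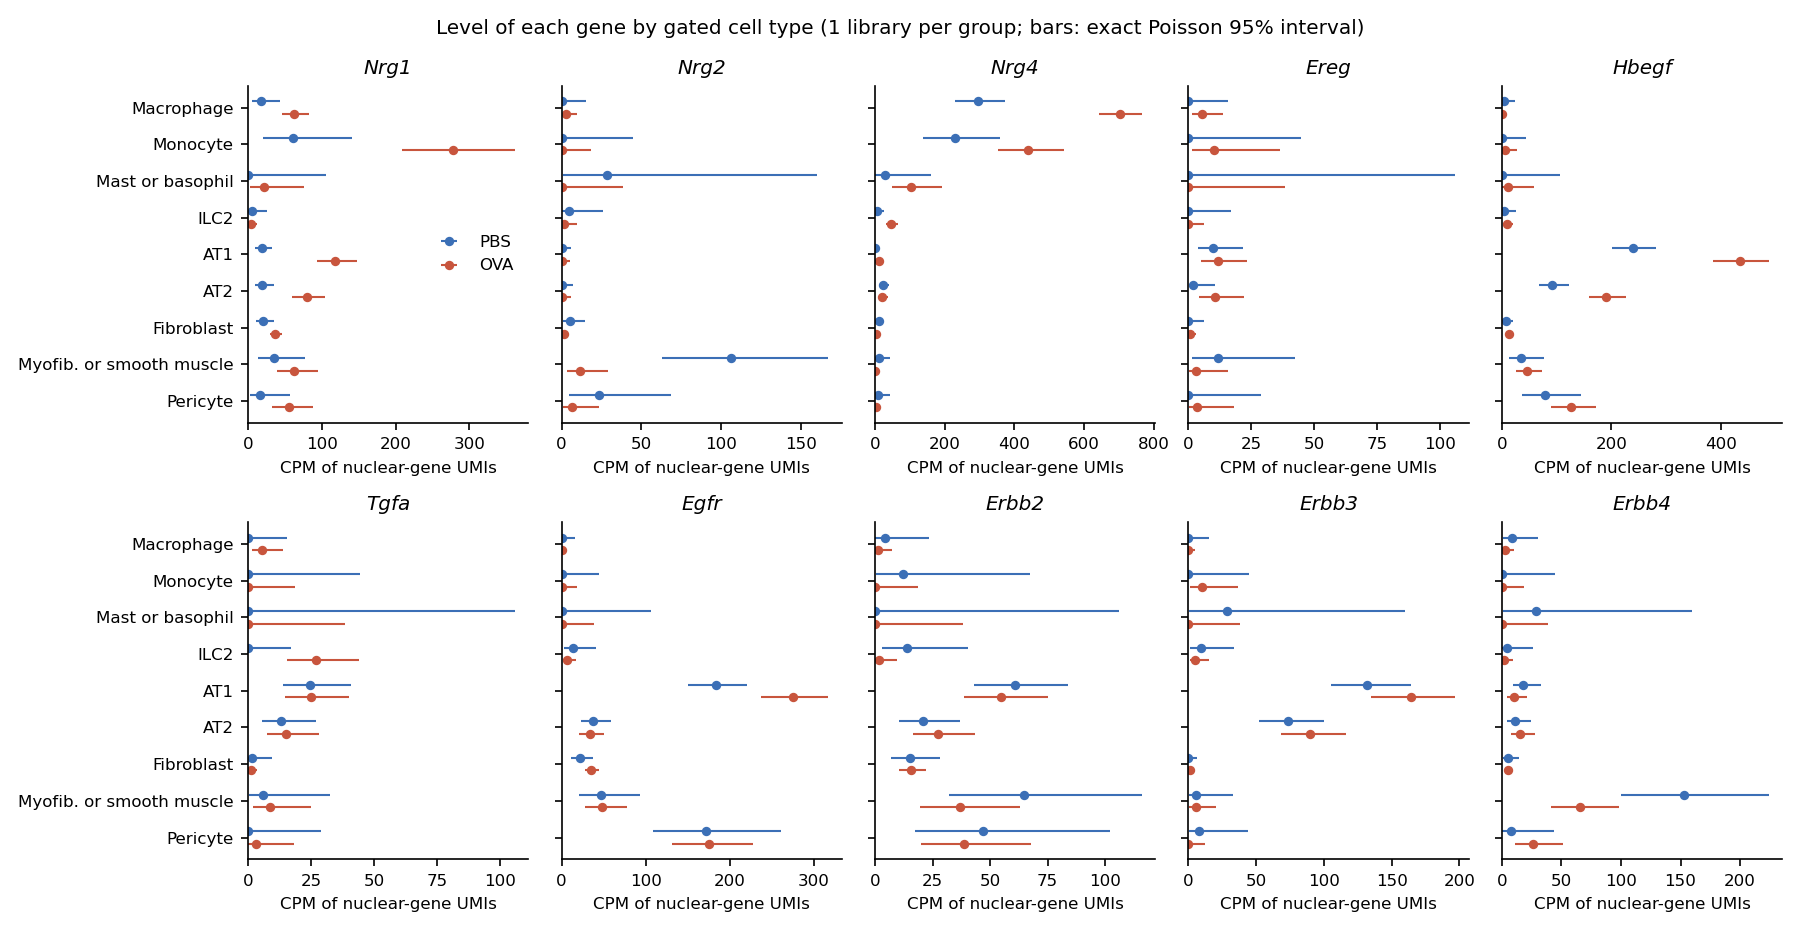
Level of each of the 10 genes (horizontal axis, CPM of nuclear-gene UMIs, a scale of its own in each panel) in the 9 gates for the PBS library (blue) and the OVA library (red), with exact Poisson 95% intervals. Nrg4 stands out in macrophages and monocytes, Hbegf, Egfr and Erbb3 in AT1 cells, and Egfr also in pericytes.

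Nrg4 was found in 21.3% of macrophage-gated nuclei in PBS (50 of 235) and 48.2% in OVA (223 of 463). Such shares depend on depth. After thinning each nucleus to 500 nuclear-gene UMIs and leaving out the 34 PBS and 8 OVA nuclei with fewer, Nrg4 was found in 14.4% (29 of 201, 9.88% to 20.1%) and 22.6% (103 of 455, 18.9% to 26.8%). In fibroblasts, taken as the level of free RNA, the thinned shares were 0.233% (1 of 430 nuclei) and 0% (0 of 967). The median depth of macrophage-gated nuclei was 871 (PBS) and 1406 (OVA) nuclear-gene UMIs, against 850 and 1700 in fibroblasts.

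The OVA library had more Nrg4 per macrophage UMI than the PBS library. The log2 ratio of OVA over PBS was 1.25 (0.89 to 1.63), a 2.38-fold difference, beside a median of 0.21 over the 2117 genes with at least 100 UMIs in that gate. Of these genes, 2.83% were at least 2-fold higher and 2.65% at least 2-fold lower in OVA, and 99.1% had a lower ratio than Nrg4. With the nuclei thinned to 500 UMIs the log2 ratio was 0.66 (0.11 to 1.26). Leaving out the nucleus with most Nrg4 UMIs in each library gave 1.26. In monocyte-gated nuclei the log2 ratio was 0.94 (0.21 to 1.74), where 3.35% of 508 genes were at least 2-fold higher and 2.95% lower, but in the monocyte cluster it was −0.085 (−2.70 to 3.31) on 2 and 5 UMIs.

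Macrophages were then divided by a second set of fixed markers, those of alveolar macrophages and their precursors (such as Pparg, Car4 and Ear2) and those of tissue macrophages (such as Cd163, Folr2 and Lyve1). In alveolar-side nuclei Nrg4 was at 292 CPM in PBS (41 UMIs, 117 nuclei) and 812 CPM in OVA (391 UMIs, 271 nuclei). Their log2 ratio was 1.48 (1.01 to 1.98), in a subset where 3.59% of 1366 genes were at least 2-fold higher and 5.12% lower in OVA. Tissue-side nuclei had the lower values in both libraries, with 3 UMIs (91.8 CPM, 18.9 to 268, 43 nuclei) in PBS and 19 UMIs (255 CPM, 153 to 398, 58 nuclei) in OVA. Nuclei with neither side's markers in the lead had 405 CPM (26 UMIs) and 600 CPM (111 UMIs), a log2 ratio of 0.57 (−0.061 to 1.24) where 5.08% of 394 genes were at least 2-fold higher.

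The same order was seen in clusters built without the 10 genes. Clusters 0 and 2 held most macrophage nuclei, 745 PBS and 520 OVA nuclei in the first and 211 and 691 in the second, so the gate's sum drew on them in different proportions. Within cluster 0, Nrg4 was at 311 CPM in PBS and 668 CPM in OVA (log2 ratio 1.10, 0.82 to 1.40). Within cluster 2 it was at 428 and 774 CPM (0.85, 0.57 to 1.15). Clusters 0 and 2 were both named for macrophages and monocytes together. The best match of cluster 2 was the monocyte list, with Ccr2, F13a1 and Fgr raised. In cluster 11, led by Wfdc17, Inhba and Car4, the values were 240 and 635 CPM (1.41, 0.88 to 1.97). In cluster 17, led by the tissue macrophage genes Stab1, C1qa and Mrc1, Nrg4 was at 96.8 CPM (3 UMIs) and 100.0 CPM (6 UMIs). The monocyte cluster 10 had 40.2 CPM (2 UMIs) and 37.9 CPM (5 UMIs). The 3 clusters with high Nrg4 were all higher in the OVA library, while clusters 17 and 10 had too few UMIs to show a difference of that size.

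**Figure D2:**
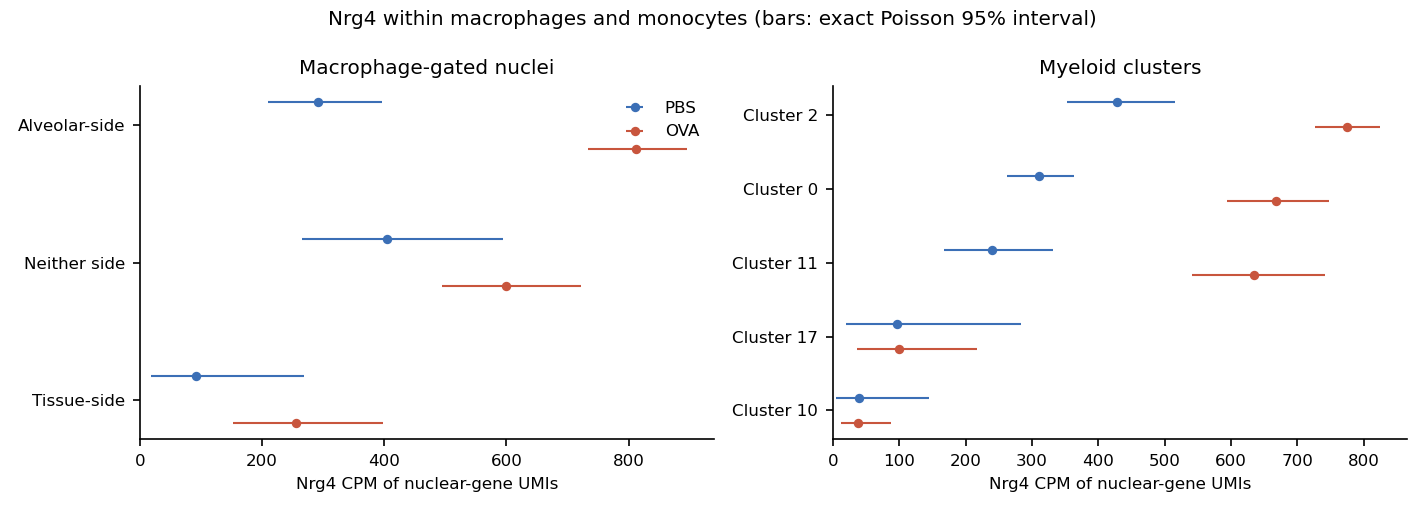
Nrg4 level (CPM of nuclear-gene UMIs, exact Poisson 95% intervals) in macrophage-gated nuclei split by alveolar-side and tissue-side markers (left) and in 5 myeloid clusters (right), for PBS (blue) and OVA (red). The points of the alveolar-side subset and of clusters 2, 0 and 11 lie above those of the tissue-side subset and of clusters 17 and 10, while in PBS the intervals of both subsets overlap.

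Nrg1, the neuregulin with the broadest expression, was low in the PBS library and had the higher level in the OVA library in 7 of the 9 gates, 5 of which had at least 30 UMIs over both libraries. The intervals of the libraries overlapped in the other 2, pericytes and myofibroblasts or smooth muscle, and also in fibroblasts. In AT1 cells it went from 11 UMIs (18.1 CPM, 9.05 to 32.4) to 80 UMIs (118 CPM, 93.7 to 147). In AT2 cells it had 10 UMIs (18.8 CPM) and 52 UMIs (79.2 CPM). In monocyte-gated nuclei it had 5 UMIs (60.4 CPM) and 55 UMIs (278 CPM, 209 to 362), the highest level among the 9 gates in OVA. Macrophages had 4 UMIs (16.9 CPM) and 46 UMIs (62.0 CPM), and fibroblasts 12 UMIs (19.9 CPM, 10.3 to 34.8) and 74 UMIs (37.0 CPM, 29.1 to 46.5). ILC2s, with 1 and 2 UMIs, and mast cells or basophils, with 0 and 2 UMIs, had too few to show a direction.

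None of these gates reached the 100 UMIs set for a ratio, so ratios for Nrg1 were added at a minimum of 30 UMIs after the counts had been seen. Over all kept nuclei, which mix cell types in different shares, Nrg1 had 99 UMIs (22.3 CPM) in PBS and 554 UMIs (67.7 CPM) in OVA, a log2 ratio of 1.60 (1.29 to 1.93), where 1.03% of 10540 genes were at least 2-fold higher and 0.361% lower. By gate the log2 ratio was 2.70 in AT1 cells (1.79 to 3.76, background 1.71%), 2.08 in AT2 cells (1.08 to 3.22, background 2.70%) and 2.20 in monocyte-gated nuclei (0.89 to 3.88, background 7.79%). In macrophages it was 1.88 (0.43 to 3.82, background 5.09%) and in fibroblasts 0.89 (0.0025 to 1.91, background 2.47%), each background being the share of genes with at least 30 UMIs that were at least 2-fold higher. Of 1762 genes with at least 30 UMIs in all 5 gates, 0% were at least 2-fold higher in every one. Nrg1 did not pass either, as its lowest ratio was 0.89. The 5 gates were those where Nrg1 itself reached 30 UMIs, mostly through the OVA library, so no rank of Nrg1 among these genes is drawn.

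Much of the Nrg1 signal of the OVA library came from a few nuclei. Among kept OVA nuclei, 226 held Nrg1, with 2.45 UMIs each on average, and the 9 nuclei with 10 or more UMIs held 30.5% of its UMIs. In PBS, 73 nuclei held it, with 1.36 UMIs each, and none reached 10. One nucleus gave 18 of the 46 UMIs in macrophages, another 18 of the 80 in AT1 cells and another 13 of the 55 in monocyte-gated nuclei. Leaving out the nucleus with most Nrg1 UMIs in each library, the log2 ratio was 3.12 in AT1 cells (1.92 to 4.62), on 6 PBS and 62 OVA UMIs. It was 2.28 in AT2 cells (1.18 to 3.57), on 8 and 46, and 3.15 in monocyte-gated nuclei (1.21 to 6.25), on 2 and 42. In macrophages it was 1.58 (−0.11 to 3.94), on 3 and 28, and in fibroblasts 0.92 (−0.053 to 2.05), on 10 and 63. The step took 5 of 11 PBS UMIs in AT1 cells and 3 of 5 in monocyte-gated nuclei. These were larger parts than in OVA, so those ratios rose. The share of nuclei with Nrg1 was 2.55% and 5.59% in AT1 cells, and after thinning 0.503% (1 of 199) and 2.52% (7 of 278). In AT2 cells it was 1.77% and 7.59%, and after thinning 1.09% (4 of 368) and 3.78% (11 of 291).

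**Figure D3:**
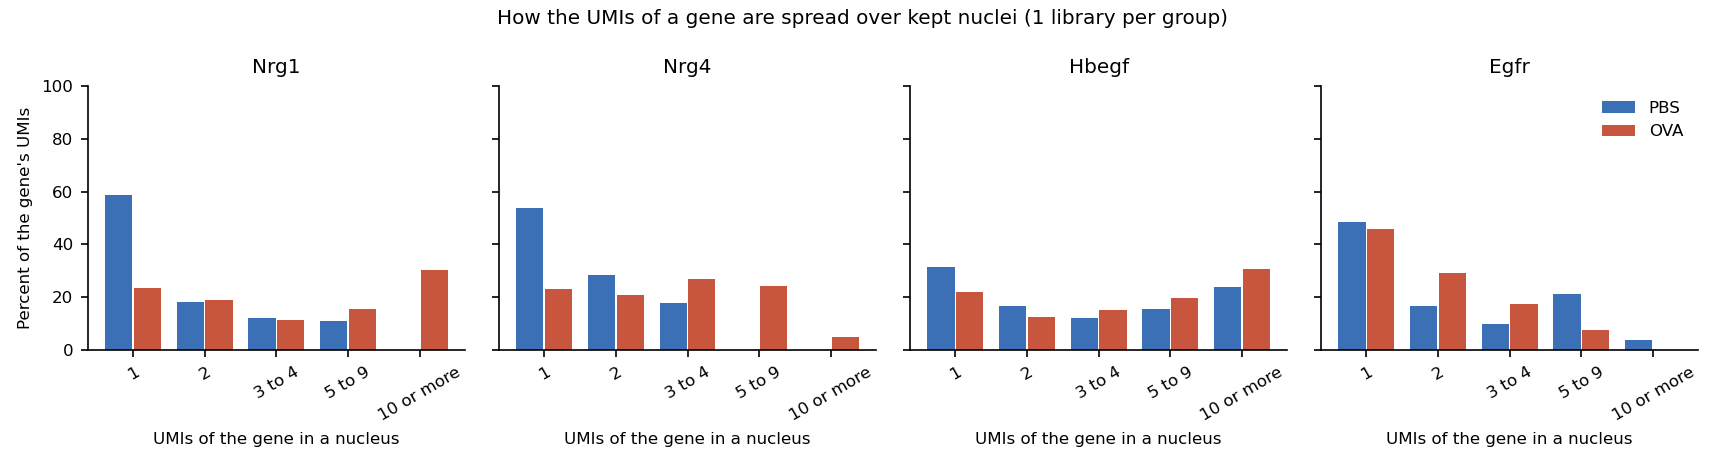
Percent of a gene's UMIs that came from nuclei holding 1, 2, 3 to 4, 5 to 9 or 10 and more UMIs of it (vertical axis), over all kept nuclei of the PBS library (blue) and the OVA library (red), for Nrg1, Nrg4, Hbegf and Egfr. For Nrg1, nuclei with 10 or more gave 30.5% of the UMIs in OVA and none in PBS.

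Hbegf, which is made as a membrane protein and shed to act on Egfr and Erbb4, was an AT1 gene in these nuclei. It was at 239 CPM in PBS (145 UMIs, 202 to 281) and 436 CPM in OVA (295 UMIs, 387 to 488), 6.65-fold and 10.1-fold the level of the other gates together. AT2 cells followed with 92.1 CPM (49 UMIs) and 190 CPM (125 UMIs), and pericytes with 78.4 CPM (10 UMIs) and 126 CPM (39 UMIs). AT1 cells stood above AT2 cells beyond counting error in both libraries, while AT2 cells and pericytes did not differ beyond it in PBS. In gated nuclei that also lay in the cluster of the same name, the order of AT2 cells and pericytes turned. Pericytes then had 132 CPM (10 UMIs) and 164 CPM (33 UMIs), and AT2 cells 75.9 CPM (31 UMIs) and 90.3 CPM (44 UMIs), with overlapping intervals in each library. Macrophages had 1 UMI in PBS and 0 in OVA.

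The log2 ratio of Hbegf between libraries was 0.87 in AT1 cells (0.58 to 1.16), where 1.01% of 2567 genes were at least 2-fold higher, 1.56% lower, and the median was 0.079. Thinned to 500 UMIs per nucleus it was 0.32 (−0.40 to 1.06). In AT2 cells it was 1.05 (0.56 to 1.56), where 2.13% of 2397 genes were at least 2-fold higher and 0.668% lower. That value depended on how AT2 cells were found. One OVA nucleus gave 36 of the 125 UMIs, and in nuclei of the AT2 clusters the log2 ratio was 0.060 (−0.58 to 0.71).

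Tgfa and Ereg were sparse. Tgfa was at 24.7 CPM (15 UMIs) and 25.1 CPM (17 UMIs) in AT1 cells and at 13.2 CPM (7 UMIs) and 15.2 CPM (10 UMIs) in AT2 cells, with a log2 ratio of 0.023 in AT1 cells (−1.07 to 1.13). In ILC2s Tgfa had 0 UMIs in PBS (limit of 13.8 CPM from 3 counts, Poisson interval 0 to 17.0) and 16 UMIs in 13 OVA nuclei (27.1 CPM, 15.5 to 44.1), and these intervals overlap. Ereg had at most 8 UMIs per library in any of the 9 gates, that being AT1 cells in OVA (11.8 CPM), with 6 UMIs (9.89 CPM) in PBS. The small ciliated gate had 9 Ereg UMIs in OVA (34.4 CPM), 7 of them in 1 nucleus.

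Of the Nrg2 UMIs in the 9 gates, myofibroblasts or smooth muscle held 69.2% in PBS and 33.3% in OVA. It had 18 UMIs there in PBS (106 CPM, 62.7 to 167), spread over 15 nuclei, and 4 UMIs in OVA (11.4 CPM). Its level was higher in the small mesothelium gate, with 304 CPM in PBS (3 UMIs in 6 nuclei) and 671 CPM in OVA (15 UMIs in 11 nuclei). Over all kept nuclei it had 45 UMIs in PBS (10.1 CPM) and 37 in OVA (4.52 CPM).

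Among the receptors, Egfr was highest in AT1 cells and pericytes. AT1 cells had 183 CPM in PBS (111 UMIs, 150 to 220) and 275 CPM in OVA (186 UMIs, 237 to 317), and pericytes 172 CPM (22 UMIs, 108 to 261) and 175 CPM (54 UMIs, 131 to 228). The gates did not differ beyond counting error in PBS (log2 ratio 0.084, −0.58 to 0.82), while AT1 cells were higher in OVA (0.65, 0.21 to 1.12). AT2 cells were far lower, with 37.6 CPM (20 UMIs) and 33.5 CPM (22 UMIs), close to fibroblasts at 21.6 CPM (13 UMIs) and 35.0 CPM (70 UMIs). Macrophages and monocyte-gated nuclei had 0 UMIs in both libraries, which in OVA macrophages allows up to 4.05 CPM. The log2 ratio of OVA over PBS in AT1 cells was 0.59 (0.24 to 0.94), under the 2-fold mark, and 0.26 (−0.068 to 0.58) in the AT1 clusters. In pericytes it was 0.017 (−0.72 to 0.80), on fewer than 100 UMIs.

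Erbb3, a neuregulin receptor, was counted mainly in the alveolar epithelium among the 9 gates. It was at 132 CPM (80 UMIs, 105 to 164) and 164 CPM (111 UMIs, 135 to 197) in AT1 cells and at 73.3 CPM (39 UMIs) and 89.9 CPM (59 UMIs) in AT2 cells. AT1 cells were above AT2 cells in PBS (log2 ratio 0.85, 0.28 to 1.44) and in OVA (0.87, 0.40 to 1.35). None of the other 7 main gates had more than 3 UMIs in a library, and macrophages had 0 in both. Airway epithelium held Erbb3 too: the ciliated gate, with fewer than 50 nuclei, had 45.0 CPM (3 UMIs) in PBS and 57.3 CPM (15 UMIs) in OVA, and 18 club-gated OVA nuclei had 90.0 CPM (4 UMIs). Its log2 ratio between libraries in AT1 cells was 0.31 (−0.11 to 0.75), and 1.10 (−0.029 to 2.38) on 9 and 27 UMIs after thinning. Both intervals include 0.

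Erbb2 was the most evenly spread receptor outside the immune gates. It was at 61.0 CPM (37 UMIs) and 54.6 CPM (37 UMIs) in AT1 cells, at 64.6 CPM (11 UMIs) and 37.0 CPM (13 UMIs) in myofibroblasts or smooth muscle, and at 47.0 CPM (6 UMIs) and 38.8 CPM (12 UMIs) in pericytes. Neighbours in this order did not differ beyond counting error. ILC2s, macrophages, monocytes and mast cells or basophils had at most 3 UMIs of it per gate and library.

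Erbb4, the receptor for Nrg4, had at most 11 UMIs per library in 8 of the 9 gates. Myofibroblasts or smooth muscle had 26 UMIs in PBS (153 CPM) and 23 UMIs in OVA (65.4 CPM). A single PBS nucleus held 24 of the 26 UMIs, and a single OVA nucleus 10 of the 23. Without them the values were 12.2 CPM (2 UMIs) and 37.2 CPM (13 UMIs), so the order of the libraries turned in this gate. In gated nuclei that also lay in the cluster of that name, Erbb4 had 1 UMI (7.32 CPM) and 3 UMIs (11.2 CPM), so most of these UMIs came from gated nuclei outside it. AT1 cells had 11 UMIs (18.1 CPM) and 7 UMIs (10.3 CPM), AT2 cells 6 UMIs (11.3 CPM) and 10 UMIs (15.2 CPM), and macrophages 2 UMIs in each library. Nrg4 and Erbb4 were therefore counted mostly in different gates of the 9. Over all kept nuclei, which mix cell types in different shares, Erbb4 had 96 UMIs in PBS and 80 in OVA. Its log2 ratio was −1.15 (−1.59 to −0.70), where 0.361% of 10540 genes were at least 2-fold lower. It was −0.95 (−1.44 to −0.45) without the top nucleus of each library. That step left another nucleus with 10 or more Erbb4 UMIs in each library. In PBS 2 such nuclei held 44 of the 96 UMIs, and in OVA 2 held 21 of the 80. Erbb4 was at 796 CPM in PBS and 114 CPM in OVA in the unnamed stromal cluster 16, which no gate stands for. Among all kept nuclei Erbb2 was at −0.57 (−0.92 to −0.23), Erbb3 at −0.42 (−0.71 to −0.13) and Egfr at −0.13 (−0.35 to 0.10).

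**Figure D4:**
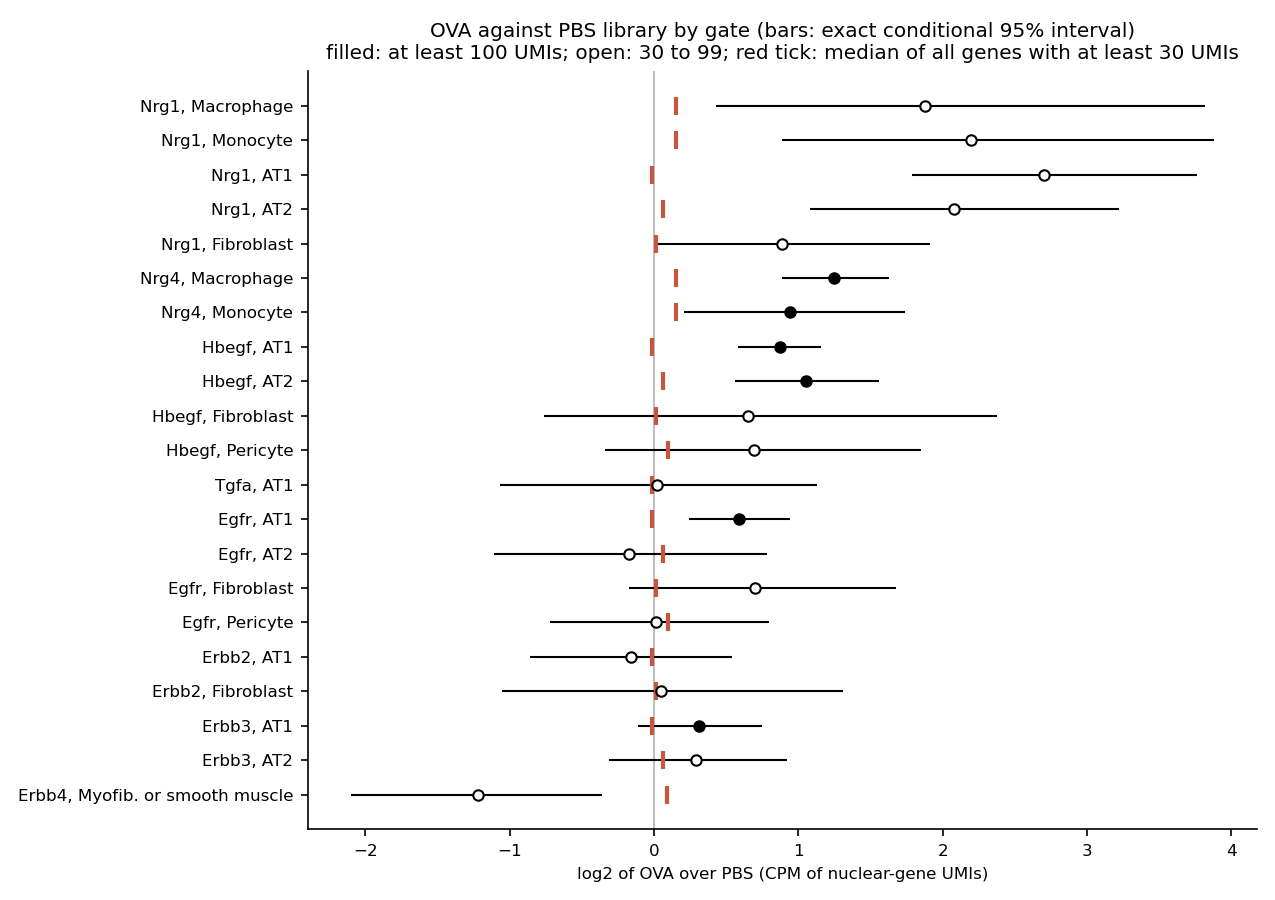
Log2 ratio of OVA over PBS (horizontal axis) for each gene and gate with at least 30 UMIs over both libraries, with exact conditional 95% intervals. Filled points have at least 100 UMIs, open points 30 to 99, and red ticks mark the median of all genes with at least 30 UMIs in the gate. Nrg1 lies to the right of 0 in the 5 gates where it reached 30 UMIs, mostly through the OVA library. Nrg4 does so in macrophages and monocyte-gated nuclei, the only gates where it reached that minimum. Erbb4 in myofibroblasts or smooth muscle lies to the left, on UMIs of which 24 came from 1 PBS nucleus.

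Accessibility at the gene starts was a second readout of the same nuclei that the choice of genes had not used. Counts were taken in peaks within 1 kb of a start and divided by all peak counts of the gate, on the same scale of 1000000 as the RNA levels, here called peak CPM. A fragment can give a count at each end, so the Poisson intervals are too narrow, and peaks were called in each library on its own. Nrg4 (chr9:55220222-55326844, minus strand) has starts listed at 2 places. The inner start, whose promoter is printed above, was most accessible in macrophages, with 68 counts in PBS (29.0 peak CPM, 22.5 to 36.8) and 92 counts in OVA (20.3 peak CPM, 16.4 to 24.9). Monocyte-gated nuclei had 15.7 and 13.9 peak CPM and AT2 cells 14.4 and 8.01, while fibroblasts, myofibroblasts or smooth muscle and pericytes had between 0 and 2.82. The outer start was accessible in every gate, from 8.34 to 41.7 peak CPM, with macrophages at 26.5 and 21.2.

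At the inner start, macrophages thus led in both libraries, as they did in Nrg4 RNA. The OVA library did not have the higher accessibility there, although it had the higher Nrg4 RNA.

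Egfr (chr11:16752203-16918158, plus strand) had open peaks near its start in AT1 cells, at 36.6 peak CPM in PBS (90 counts) and 42.3 in OVA (58 counts), and as much in AT2 cells, at 37.9 (189 counts) and 45.0 (135 counts). Pericytes, whose Egfr RNA was near that of AT1 cells, had 9.43 peak CPM (8 counts) and 10.4 peak CPM (16 counts), so RNA and accessibility ranked AT2 cells and pericytes in opposite order. The PBS peak ended before the start, and in OVA 2 peaks flanked it. Macrophages and monocyte-gated nuclei had at most 2.87 peak CPM.

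At the Erbb3 start (chr10:128567523-128589652, minus strand) AT1 cells had 53.3 and 56.1 peak CPM and AT2 cells 42.1 and 39.4, with the other gates between 9.43 and 25.1. The Hbegf start (chr18:36504927-36515805, minus strand) was most accessible in AT1 cells, at 65.5 (161 counts) and 91.9 peak CPM (126 counts), and next in AT2 cells, at 52.0 and 63.4. Erbb2 (chr11:98412470-98437716, plus strand) had 30.5 and 36.5 peak CPM in AT1 cells, 34.5 and 45.0 in AT2 cells and 25.3 and 37.1 in fibroblasts, but 2.13 and 8.16 in macrophages, although its printed promoter holds the PU.1 word. Tgfa (chr6:86195223-86275719, plus strand) had 38.6 and 52.5 peak CPM in AT1 cells against 4.27 and 4.85 in macrophages. The inner start of Nrg1 (chr8:31814551-32884029, minus strand) had 12.5 peak CPM (12 counts) and 13.2 peak CPM (19 counts) in monocyte-gated nuclei, the gate with the most Nrg1 RNA in OVA, and 2.56 (6 counts) and 7.50 (34 counts) in macrophages. AT1 cells, next in Nrg1 RNA in OVA, had 0 counts in PBS and 2.92 peak CPM (4 counts) in OVA there, and AT2 cells 0.803 and 0.667 peak CPM. The outer Nrg1 start had peaks in PBS alone, with at most 5.12 peak CPM in a gate. Erbb4 (chr1:68032186-69108059, minus strand) had at most 8.75 peak CPM in any of the 9 gates. In myofibroblasts or smooth muscle, which led in its RNA, it had 2.75 (4 counts) and 1.29 peak CPM (2 counts). Ereg (chr5:91074622-91093646, plus strand) was most accessible in myofibroblasts or smooth muscle, at 24.0 (35 counts) and 14.1 peak CPM (22 counts). In AT1 cells Ereg had 6.91 and 8.02 peak CPM. Nrg2 (chr18:36017652-36197380, minus strand) was most accessible in pericytes, at 51.8 and 38.3 peak CPM, and in myofibroblasts or smooth muscle, at 34.3 and 41.8.

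**Figure D5:**
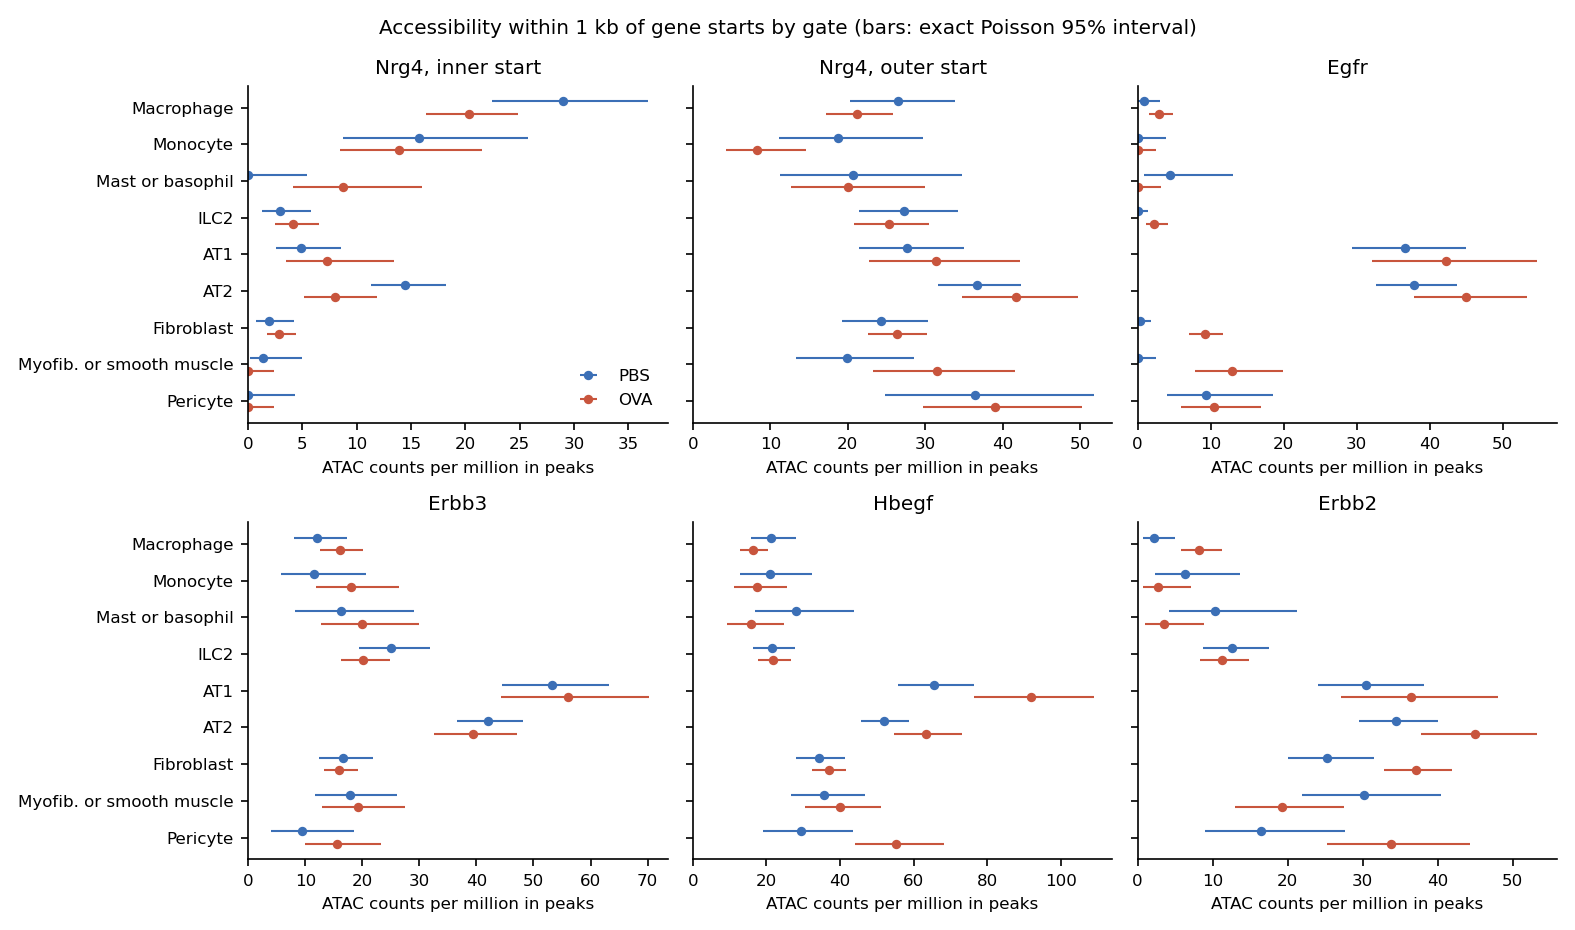
Counts in peaks within 1 kb of a gene start over all peak counts of the gate, scaled to 1000000 (horizontal axis, peak CPM, a scale of its own in each panel), with exact Poisson 95% intervals, for PBS (blue) and OVA (red). The inner Nrg4 start is highest in macrophages while the outer start is open in all gates, and the Egfr start is open in AT1 and AT2 cells.

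The other genes of the pathway came from a list of 29, written with earlier results of these data known. Few of its members had 100 UMIs in a gate. The other ligands Egf, Btc, Epgn and Nrg3 had at most 6 UMIs per library in any of the 9 gates. Amphiregulin (Areg), another Egfr ligand, was at 87.7 and 192 CPM in ILC2s (log2 ratio 1.13, 0.42 to 1.91), at 54.5 and 169 CPM in AT2 cells (1.63, 1.03 to 2.28) and at 47.8 and 79.8 CPM in AT1 cells on 29 and 54 UMIs. Of the 5 list genes measured in ILC2s, Areg alone was at least 2-fold higher, where 4.77% of 1594 genes were and 0.627% were 2-fold lower. Of the 13 in AT2 cells, Areg alone passed as well, where 2.13% of 2397 genes were higher and 0.668% lower. Errfi1, a feedback inhibitor of Egfr, lay at the edge there, at 462 CPM (246 UMIs) and 923 CPM (606 UMIs), a log2 ratio of 1.00 (0.78 to 1.22).

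In monocyte-gated nuclei the docking protein gene Gab1 was the 1 list gene measured and was 2.36-fold higher (266 and 627 CPM, log2 ratio 1.24, 0.58 to 1.96), where 3.35% of 508 genes were at least 2-fold higher. In macrophages 7 list genes were measured and 0 were 2-fold apart, where 2.83% of 2117 genes were higher and 2.65% lower. Among the 7 were Gab1 at 249 and 450 CPM (0.86, 0.46 to 1.28) and Adam17, a sheddase that frees EGF ligands, at 152 and 259 CPM (0.77, 0.25 to 1.33). Spred1, an inhibitor of the Ras pathway, was 2.22-fold higher in myofibroblasts or smooth muscle (129 and 287 CPM, log2 ratio 1.15, 0.48 to 1.89), where 2.22% of 1083 genes were at least 2-fold higher and 0.646% lower. None of the 9 list genes measured in AT1 cells was 2-fold apart, where 1.01% of 2567 genes were higher and 1.56% lower. The same held for the 18 measured in fibroblasts, where 0.832% of all genes were 2-fold higher and 0.523% lower, and for the 4 in pericytes, where 2.12% were higher and 0.823% lower. No list gene with 100 UMIs was 2-fold lower in any gate, and none reached 100 UMIs in mast cells or basophils. The median log2 ratio of the list was 0.35 in macrophages against 0.21 over all genes, 0.18 against 0.13 in AT2 cells, 0.11 against 0.079 in AT1 cells, 0.11 against 0.063 in fibroblasts and 0.20 against 0.17 in ILC2s. It lay below that of all genes in myofibroblasts or smooth muscle (0.11 against 0.13) and in pericytes (0.031 against 0.11). The balance of higher and lower genes moved with the scaling: in macrophages 51.7% of genes 2-fold apart were higher in OVA over nuclear-gene UMIs, 91.0% over all gene UMIs and 16.2% after centring on the median. In ILC2s these shares were 88.4%, 99.4% and 69.4%, in AT1 cells 39.4%, 64.9% and 24.2%, and in AT2 cells 76.1%, 96.3% and 52.7%. In fibroblasts they were 61.4%, 81.6% and 49.0%, and in pericytes 72.0%, 97.0% and 60.9%. In monocyte-gated nuclei 17 genes were higher and 15 lower over nuclear-gene UMIs, 57 and 3 over all gene UMIs, and 10 and 32 after centring. In myofibroblasts or smooth muscle these numbers were 24 and 7, 64 and 2, and 15 and 10. Nrg4 in macrophages kept its direction, with log2 ratios of 1.46 over all gene UMIs and 1.04 after centring.

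Genes with the most similar pattern were found by Pearson's r of log2(CPM + 10) over the 18 points of 9 gates and 2 libraries, among 8902 genes with at least 100 UMIs. The points share libraries and depth, and the values are a description. For Nrg4 these were Dmxl2 (r = 0.978), Cd86 (0.967) and Adipor2 (0.964). For Hbegf they were Ano1 (0.961), Cadps2 (0.957) and Etl4 (0.955), and for Egfr Sorbs3 (0.959), Esam (0.941) and Laptm4b (0.936). Erbb2 was most like Ltbp3 (0.958), Fstl1 (0.937) and Fbn2 (0.931), and Erbb3 most like Arhgef28 (0.966), Spint2 (0.963) and Cystm1 (0.958). Nrg1 had weaker matches, with Elf2 (0.834), Ap1g1 (0.817) and Uba6 (0.790), and so did Erbb4, with Rarb (0.876), Zfp260 (0.863) and Adamts15 (0.847). Nrg2, Ereg and Tgfa had 38, 33 and 77 UMIs over the gates and were not matched.

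Some of the 10 genes overlap other genes. Fbxo22 lies on the opposite strand at the 3′ end of Nrg4, Egfros on that of Egfr, Mien1 on that of Erbb2 and Gm19610 on that of Ereg. On the same strand, Mir6917 overlaps Erbb3, and several genes such as Gm37100 and Gm15670 overlap Erbb4. How reads in such overlaps were assigned was not given in the sources used here.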

How the data were processed

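Nuclei of fetal mouse lung were measured with a kit for RNA and accessible chromatin of the same nucleus, in 1 PBS and 1 OVA library. Per the labels and the study's methods, the authors made the deposited counts with Cell Ranger ARC 2.0.1 on mm10: whole UMI counts per gene and whole transposition counts per peak, with peaks called in each library separately and no normalization. Groups came from the labels.

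A nucleus needed 200 genes and no more than 60% mitochondrial UMIs (4572 PBS and 5246 OVA of 8019 and 5960 barcodes), and 293 and 250 doublets, called from simulated doublets, were removed. The libraries shared 54 barcode sequences. Gates needed at least 2 fixed markers and a lead of 1. Markers found in over 30% of kept nuclei in both libraries (Sftpc, Mfap4) were not counted, a rule set after marker counts had been seen. Ties (163 and 228 nuclei) and nuclei with too few markers (1753 and 1371) stayed outside the gates, and 822 and 855 of the latter lay in macrophage or monocyte clusters. Clusters were Leiden clusters (leidenalg 0.10.2) of both libraries without the 10 genes, the pathway list and mitochondrial genes.

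UMIs were summed per gate and library and divided by nuclear-gene UMIs, because the mitochondrial share differed between libraries. Sums have exact Poisson intervals, shares Clopper-Pearson intervals and ratios exact conditional binomial intervals (SciPy 1.17.1), all at 95% and for counting error only. The ratio and its interval were tested on simulated data. A level of 0 is given the limit that 3 counts would set. A ratio needed at least 100 UMIs over both libraries, and fewer UMIs are given as counts. Named were the 10 genes in every gate with at least 50 nuclei per library, list genes at least 2-fold apart, and 3 like genes per member. List genes under 2-fold (Errfi1, Adam17, and Gab1 in macrophages) and Areg in AT1 cells were named after their values were seen. Positions are from GENCODE M21 (GRCm38). The members and lists were chosen with earlier results of these data known. Alternatives covered the denominator, gate stringency, clusters, doublets, the mitochondrial limit, thinning, single-nucleus means, a joint filter, centring, the UMI minimum and the window. Chosen after seeing the data were the minimum of 30 UMIs, leaving out the nucleus with most UMIs of a gene, requiring gate and cluster of the same name, and counting macrophage and monocyte markers together.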

Additional observations from a re-analysis of the deposited data

Results flagged for a closer look

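Some signal of these genes lay outside the 9 gates. Nrg4 was at 180 CPM in PBS (195 UMIs) and 447 CPM in OVA (625 UMIs) in kept nuclei with too few markers for a gate, of which 822 of 1753 and 855 of 1371 lay in macrophage or monocyte clusters. Erbb4 was at 796 CPM in PBS (60 UMIs in 7 of 63 nuclei, 24 of them in 1 nucleus) and 114 CPM in OVA (15 UMIs in 9 of 74 nuclei) in cluster 16, an unnamed stromal cluster led by Ctnna3 and Gpc6, with Erbb4 itself among its top genes. Nrg2 was at 671 CPM in the 11 mesothelium-gated nuclei of the OVA library (15 UMIs in 10 nuclei). Nrg1 was at 332 CPM in the 22 ciliated-gated nuclei of the OVA library (87 UMIs), 59 of them in a single nucleus, beside 135 CPM in the 27 of the PBS library (9 UMIs). The mesothelium and ciliated gates had fewer than 50 nuclei in each library.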

How the results depend on the processing

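No paired analysis was possible because PBS and OVA were represented by a single library apiece. Of 78 ratios under the alternatives, 68 stayed within the counting interval of the reported value, 9 left it and 1 changed sign. Levels moved more often, as 47 moved and 99 did not. Among pathway counts 6 moved and 30 did not, and among other results 4 moved and 10 did not. Nrg4 in macrophages ranged from 0.66 to 2.14 (log2) and was 0.66 with nuclei thinned to 500 UMIs and 2.14 at most 20% mitochondrial UMIs, on 1 PBS UMI. In alveolar-side macrophages these were 0.77 and 2.51. Thinning also gave 0.32 for Hbegf and 1.10 for Erbb3 in AT1 cells. Nrg4 in the monocyte cluster turned to −0.085. The Nrg4 level in macrophages was 155 CPM (PBS) and 426 CPM (OVA) over all gene UMIs, 128 and 566 CPM at most 20% mitochondrial UMIs, 226 CPM in PBS with 1 more marker, 536 CPM in OVA after thinning and 636 CPM in OVA as a mean over nuclei. The cause of these moves was not tested. Over all gene UMIs, 1 list gene passed 2-fold in macrophages and 2 in AT2 cells. Depth limited Nrg2, Ereg, Tgfa and Erbb4, which mostly had fewer than 30 UMIs in a gate. With 1 library per group, spread between litters is unknown.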
